A study of Homo sapiens with 6 samples.

Results

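Focal adhesions are the plaques at which cells grip the extracellular matrix. Integrins bind matrix proteins outside the cell and, through talin, kindlin, the integrin-linked kinase complex, paxillin, vinculin and zyxin, are tied to actin filaments inside it, while focal adhesion kinase and Src relay signals from the plaque. Tensins bind integrin tails late in this process and stay with the longer, more central fibrillar adhesions. TNS1, TNS2 and TNS3 also bind actin, whereas TNS4 is a short tensin that lacks the actin-binding part and is best known from epithelial and carcinoma cells.

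The 9 genes described here are the tensins TNS1, TNS3 and TNS4 and the adhesion proteins ILK, PXN, TLN1, VCL, ZYX and PTK2. They were taken by symbol from the 26485 gene symbols counted in each library, and all 9 were found and passed the filter of at least 10 counts in at least 3 libraries, as did 13356 genes in all. The set was chosen with the lower level of TNS1 in the comparison below already in view, so the values of these 9 genes in that comparison are given as a description, without a test.

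A549 is a human lung carcinoma cell line of epithelial type that lacks endogenous NKX2-1, the transcription factor of lung epithelium. All the cells carried lentiviral dCas9-KRAB, a Cas9 that cannot cut fused to a repressor domain, selected with puromycin, and rat Nkx2-1 driven by the PGK promoter, selected by sorting for GFP. RNA was sequenced from 3 libraries of cells transiently transfected with sgRNA #2, a synthetic guide to the first intron of SFTPB, and from 3 libraries of cells given the non-targeted sgRNA control. Whether the cells were a clone or a pool was not stated, and the 3 replicates of each group were biologically independent by the account of the study.

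The libraries held between 6047554 and 7584611 counts on genes, so that the floor of 3 counts lay between 0.396 and 0.496 CPM, where CPM is the count scaled to a library of 1000000. The targeted gene SFTPB, which encodes surfactant protein B, had 427, 408 and 415 CPM in the sgRNA control libraries and 5.69, 6.31 and 8.16 CPM in the sgRNA #2 libraries. The epithelial markers, KRT8, KRT18, KRT19, EPCAM, CDH1 and CLDN4, together had between 2384 and 2975 CPM in the control libraries and between 2189 and 2693 CPM with sgRNA #2. The summed levels of the other marker lists overlapped between the control and sgRNA #2 libraries, at 63.9 to 67.5 and 65.8 to 69.0 CPM for haematopoietic, 0.478 to 0.850 and 0.167 to 0.601 CPM for endothelial, 7.63 to 10.2 and 6.16 to 10.1 CPM for fibroblast and 8.41 to 12.04 and 7.66 to 11.9 CPM for smooth muscle markers. At 0 in all 6 libraries were 2 of the 4 haematopoietic markers (PTPRC and CD3E) and 1 of the 4 endothelial markers (CDH5). The same held for 2 of the 6 fibroblast markers (COL1A2 and DCN) and 1 of the 4 smooth muscle markers (DES). The other genes of these lists had counts, and 1 haematopoietic, 0 endothelial, 1 fibroblast and 2 smooth muscle markers passed the filter, beside 5 of the 6 epithelial markers. The haematopoietic sum therefore came mainly from 1 gene. In bulk RNA of this kind, fewer cells expressing a gene and less RNA per cell cannot be told apart.

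TNS1 was the one gene of the 9 that differed by more than 2-fold on average. Its gene (ENSG00000079308.21) lies on the minus strand of chromosome 2 at 217799588 to 218033982 (hg38, GENCODE 44) and spans 234.4 kb with 24 annotated transcripts. TNS1 had 17.7, 37.3 and 23.8 CPM in control replicates 1, 2 and 3, from 111, 263 and 181 counts, and 11.9, 14.7 and 11.3 CPM in sgRNA #2 replicates 1, 2 and 3, from 84, 98 and 68 counts. All 3 sgRNA #2 libraries were below all 3 control libraries, and control replicate 2 stood well above the other control libraries. The mean was 26.2 ± 10.0 CPM (SD, n = 3) in the control and 12.7 ± 1.81 CPM (SD, n = 3) with sgRNA #2, which is 48.3% of the control mean. The fitted log2 fold change was -1.06 (SE 0.210, 95% interval from -1.50 to -0.61).

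With a call defined as a log2 fold change of at least 1 in size and a Benjamini-Hochberg adjusted p-value under 0.05 in the edgeR quasi-likelihood fit, TNS1 was the 1 of 9 genes called, and 0.689% of all tested genes were called as lower. Because TNS1 was chosen for this value, nothing is read from that count. The value lay close to the fold cut-off, and whether it passed depended on single libraries, most of all on control replicate 2. Without control replicate 2 the log2 fold change was -0.72 (SE 0.167), and without sgRNA #2 replicate 3 it was -0.99. In both cases TNS1 fell short of the fold cut-off and was no longer called, nor was it by DESeq2, where the log2 fold change was -1.05. With pairing by replicate number the log2 fold change of TNS1 was -1.04 (SE 0.116), and it was called. That fit had no limit on its prior degrees of freedom, which makes its standard errors small. The spread of TNS1 between the control libraries, with a coefficient of variation of 38.2%, was larger than the 7.82% that counting error alone would give, whereas with sgRNA #2 the corresponding values were 14.3% and 11.1%.

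**Figure D1:**
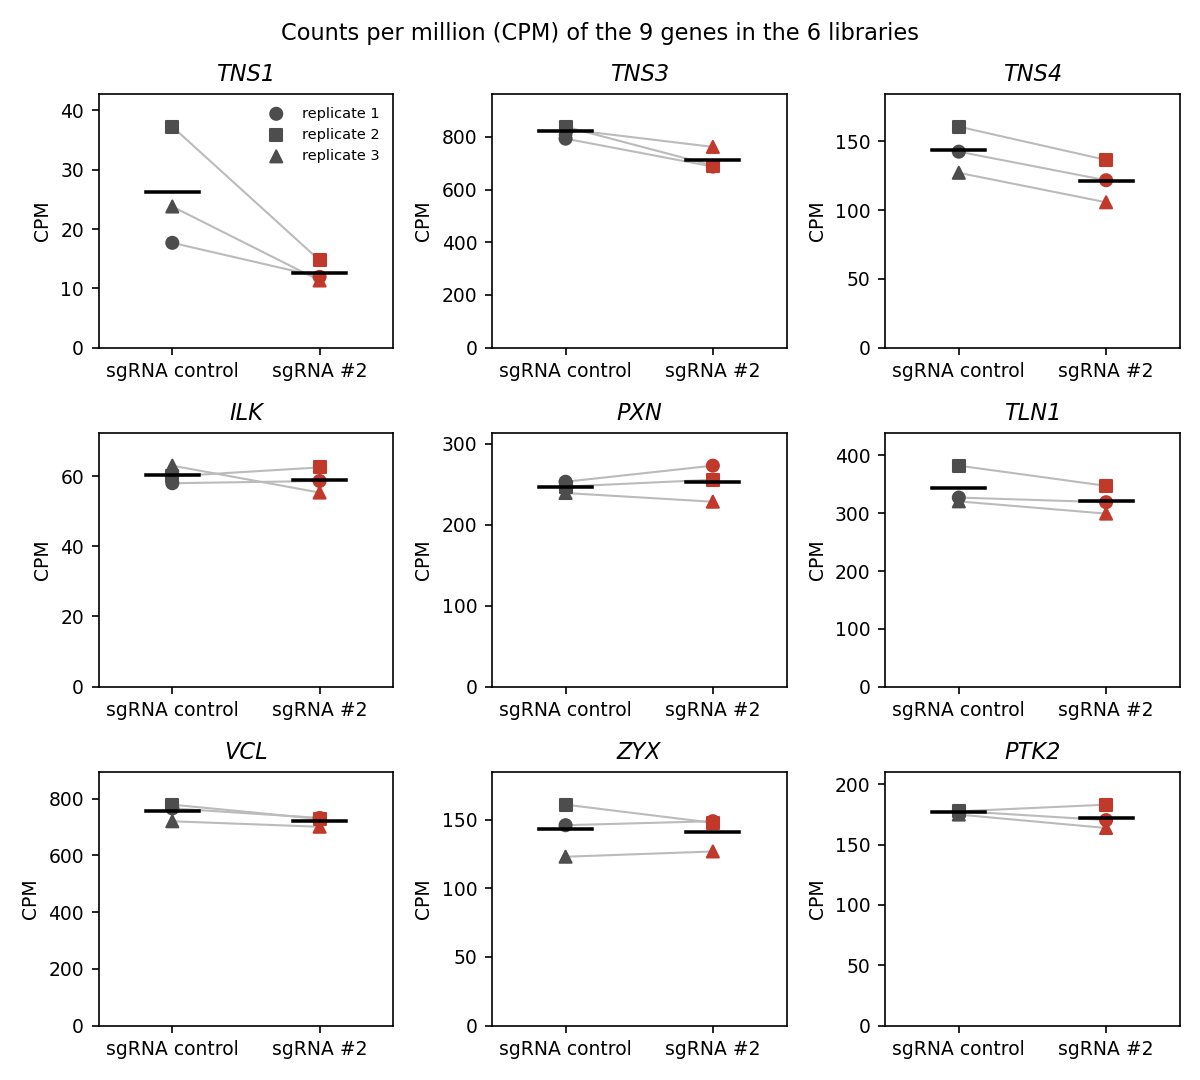
Level in CPM (vertical axis from 0) of each of the 9 genes in the sgRNA control libraries (grey) and the sgRNA #2 libraries (red), with the shape of the point giving the replicate number, grey lines joining equal numbers and black bars the group means. TNS1 had group means of 26.2 and 12.7 CPM with no overlap, TNS3 shifted slightly with no overlap, and the groups overlapped for the other 7 genes.

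**Figure D2:**
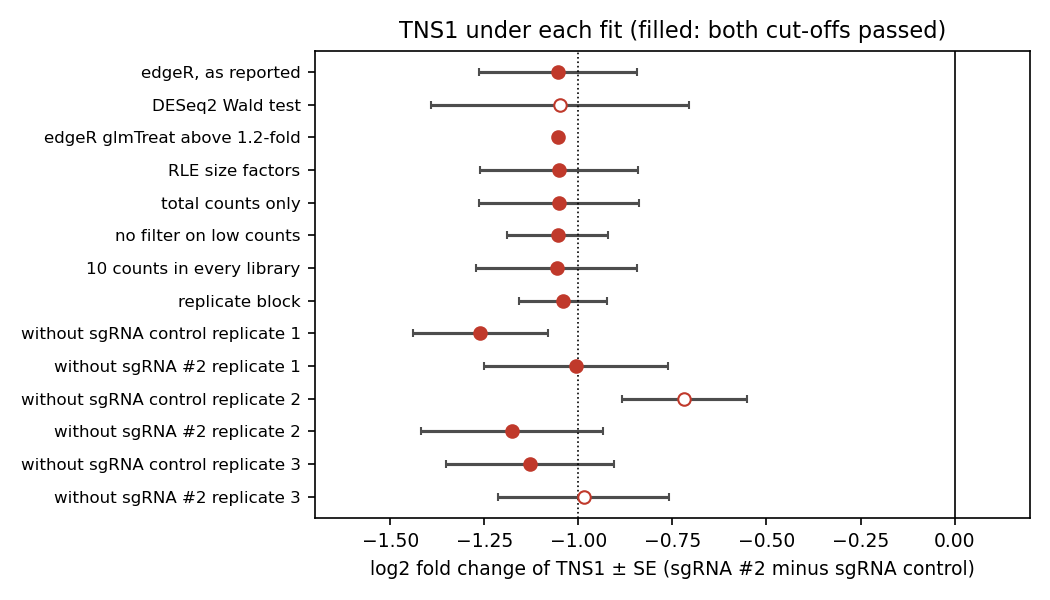
log2 fold change of TNS1 with its standard error (horizontal axis) under the reported fit and each alternative (vertical axis), with filled points where both cut-offs were passed and the dotted line at the fold cut-off of -1. The point without sgRNA control replicate 2, at -0.72, stands farthest to the right, and no standard error is drawn for glmTreat, which gives none.

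The guide and its partial matches are shown because sgRNA #2 directs the repressor by base pairing. The 20 bases of the guide were compared with every position of hg38 that is followed by NGG, the motif (PAM) that Cas9 needs. Capitals mark the bases that are identical to the guide and the GG of the PAM, all sequences are read 5′ to 3′ on the strand given, and substitutions are counted from 1 at the 5′ end of the guide.
SFTPB first intron, chr2:85668529-85668551, minus strand: GGGATGGGAGGGGAACACCCaGG
TNS1 intron, chr2:217947083-217947105, minus strand: GGGATGGGAGGtGgAgACCCtGG
ZYX intron, chr7:143389537-143389559, plus strand: GGGATGGGAGGGGtACctCagGG

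The TNS1 site has 3 mismatches, G12T, A14G and C16G, all of them within the 10 guide bases nearest the PAM, and 4 bases next to the PAM match without a break. It lies in an intron in 5 of the 24 annotated TNS1 transcripts and 2966 bp upstream of the nearest annotated TNS1 start site. The ZYX site has 4 mismatches, A14T, A17C, C18T and C20A, and none of the bases next to the PAM match before the first mismatch. In the genome there were 71 sites with at most 3 mismatches, of which 1, the SFTPB target, had 0 and none had 1. Such a site lay inside 23 of the 13076 tested genes found in the annotation (0.176%), and TNS1 was the only one of the 9 genes among them. Of these 23 genes, 2 were called, the target SFTPB and TNS1, which was chosen for its value, and the others were not. TNS1 is a long gene, and of the 973 tested genes of at least 200 kb, 9 (0.925%) held one.

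With at most 4 mismatches, 184 tested genes (1.41%) held a site, among them TNS1 and ZYX of the 9 genes. Of these 184 genes, 6 were called, SFTPB and TNS1 included, beside 96 of all 13356 tested genes. ZYX, with 146, 161 and 123 CPM in the control and 149, 148 and 127 CPM with sgRNA #2, differed by a log2 fold change of -0.02 (SE 0.090) and its groups overlapped. None of the 9 genes had a match of the 10 guide bases next to the PAM with NGG within 1000 bp of an annotated start site, which 28 of the 13076 genes (0.214%) had, and none had one of 8 bases within 2000 bp, which 2.45% had. These matches are a description of the sequence, and whether dCas9-KRAB was at any of them was not tested.

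The RefSeq table (GRCh38.p14) holds windows from 250 bases before to 50 bases after a start site, 5 of them for TNS1. The one nearest the partial match of the guide, at chr2:217944021-217944320 on the minus strand, is shown as the annotated TNS1 promoter closest to that match.
TNS1 promoter: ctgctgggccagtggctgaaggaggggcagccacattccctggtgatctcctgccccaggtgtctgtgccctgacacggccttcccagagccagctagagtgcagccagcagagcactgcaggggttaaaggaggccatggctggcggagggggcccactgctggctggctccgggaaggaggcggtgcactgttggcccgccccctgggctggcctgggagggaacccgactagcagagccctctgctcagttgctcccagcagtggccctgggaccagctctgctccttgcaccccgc

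The tested genes nearest to TNS1 had log2 fold changes much smaller in size than that of TNS1, the largest being that of IGFBP2. The nearest tested genes on the side of higher coordinates were ARPC2, a subunit of the Arp2/3 complex that branches actin, at 183159 bp, AAMP at 230147 bp and PNKD at 235669 bp, with log2 fold changes of 0.04 (SE 0.065), 0.01 (SE 0.070) and -0.04 (SE 0.086). On the other side IGFBP2, RPL37A and SMARCAL1 lay more than 1 Mb away, with log2 fold changes of -0.15 (SE 0.072), 0.02 (SE 0.093) and 0.07 (SE 0.100). None of the 6 passed the edgeR test, with adjusted p-values between 0.448 and 0.988. The annotation also places MIR6809 on the same strand within TNS1 and TNS1-AS1 on the opposite strand, and without a stated strand setting the reads of TNS1 and TNS1-AS1 cannot be told apart.

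TNS3, the most abundant tensin, had 793, 838 and 829 CPM in the control and 687, 691 and 762 CPM with sgRNA #2. Its sgRNA #2 libraries were all below its control libraries, as for 8.83% of all tested genes. The difference was small, at a log2 fold change of -0.20 (SE 0.065), which left 86.9% of the control mean. TNS4 had 142, 161 and 127 CPM in the control and 122, 136 and 106 CPM with sgRNA #2. The groups overlapped, but within each pair of equal replicate number the sgRNA #2 library was lower by a similar amount, with log2 ratios of -0.23, -0.24 and -0.27. The fitted log2 fold change of TNS4 was -0.24 (SE 0.093). With pairing by replicate number, the log2 fold changes of TNS3 and TNS4 were -0.20 (SE 0.042) and -0.24 (SE 0.052). They stayed far short of the fold cut-off in both fits, and this is a description like the other values of the 9 genes. TNS1, TNS3, TNS4, TLN1 and VCL were lower in every pair of equal replicate number, as were 19.8% of all tested genes.

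TNS2, the remaining tensin, is not among the 9 genes and gives the comparison within the family. It had 30.6, 47.8 and 42.9 CPM in the control and 37.8, 44.9 and 45.3 CPM with sgRNA #2. Its groups overlapped, and the log2 fold change of 0.07 (SE 0.130) did not pass the edgeR test (adjusted p = 0.914). TNS2 was measured at a CPM close to that of TNS1, and like TNS1 it was highest among the control libraries in replicate 2.

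Per kb of the longest annotated transcript, the order of the levels in the control libraries was TNS3 (105 ± 3.07 CPM per kb), VCL (94.5 ± 3.84), ZYX (64.3 ± 8.57), PXN (45.2 ± 1.28), TLN1 (39.6 ± 3.91), TNS4 (35.1 ± 4.11), PTK2 (34.4 ± 0.313), ILK (29.1 ± 1.22) and TNS1 (2.46 ± 0.938), each with its SD over 3 libraries. The ranges of the control libraries overlapped between PXN and TLN1, TLN1 and TNS4, and TNS4 and PTK2, so these neighbours in the order did not differ beyond their spread. The other neighbours did not overlap. With the union of all exons as the length, VCL came before TNS3, TLN1 before PXN and ILK before PTK2, and TNS1 stayed last at 1.60 ± 0.612 CPM per kb. TNS2, at 8.07 ± 1.77 CPM per kb of its longest transcript, lay between ILK and TNS1.

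**Figure D3:**
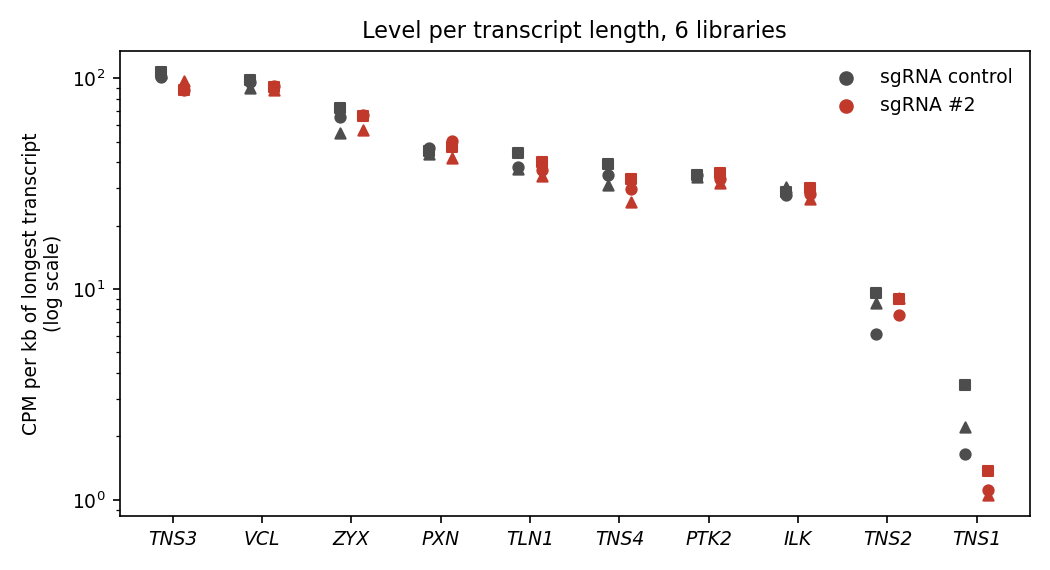
Level in CPM per kb of the longest annotated transcript (vertical axis, log scale) of the 9 genes and TNS2 in the sgRNA control (grey) and sgRNA #2 (red) libraries, ordered by the control mean and with point shapes for replicates 1 (circle), 2 (square) and 3 (triangle). TNS1 is the lowest in every library of either group.

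Of the summed tensin level per kb, TNS1 made up 1.62% ± 0.528 (SD, n = 3) in the control and 0.910% ± 0.126 (SD, n = 3) with sgRNA #2. TNS3 made up 69.7% ± 2.31 and 69.8% ± 3.08 and TNS4 23.3% ± 1.97 and 22.8% ± 3.03. The summed level was 144, 159 and 148 CPM per kb in the control libraries and 126, 132 and 133 CPM per kb with sgRNA #2, with no overlap. Most of this difference lay in TNS3, and TNS1 was the smallest part of the sum in every library.

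Among the proteins that link integrins to actin, the values were close between the groups. TLN1, talin 1, which binds and activates integrin tails, had 327, 382 and 321 CPM in the control and 319, 347 and 299 CPM with sgRNA #2. ILK, the pseudokinase that holds the PINCH and parvin proteins, had 58.0, 59.9 and 63.0 CPM in the control and 58.6, 62.5 and 55.3 CPM with sgRNA #2. VCL, vinculin, which strengthens the link between talin and actin, had 766, 779 and 721 CPM in the control and 732, 729 and 701 CPM with sgRNA #2. The groups overlapped for all 3, with log2 fold changes of -0.09 (SE 0.077) for TLN1, -0.04 (SE 0.080) for ILK and -0.07 (SE 0.062) for VCL.

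The scaffold and signalling proteins showed the same closeness. PXN, paxillin, the adaptor to which focal adhesion kinase and vinculin dock, had 253, 247 and 239 CPM in the control and 273, 256 and 229 CPM with sgRNA #2. PTK2, focal adhesion kinase, had 178, 178 and 175 CPM in the control and 170, 183 and 164 CPM with sgRNA #2. Both overlapped, with log2 fold changes of 0.04 (SE 0.070) and -0.04 (SE 0.065). The 95% intervals of ILK, PXN, TLN1, VCL, ZYX and PTK2 all lay between -0.26 and 0.18, and none of them reached a 1.2-fold change in either direction. The median over the 8 genes other than TNS1 was -0.05, beside a median of 0.00 over all tested genes, whose 10th and 90th percentiles were -0.25 and 0.19.

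**Figure D4:**
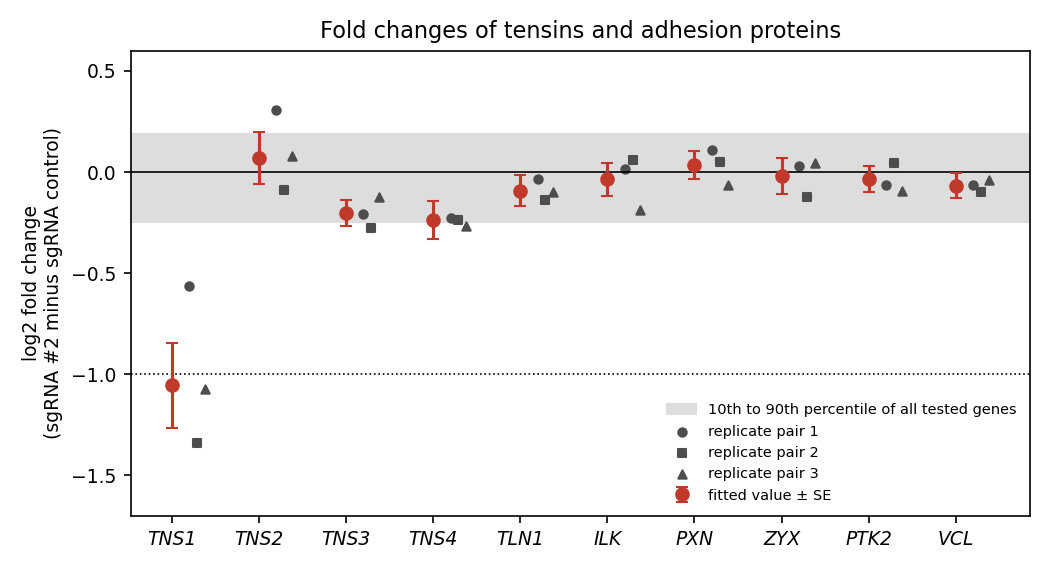
log2 fold change (vertical axis, sgRNA #2 minus sgRNA control) of the tensins and the other adhesion genes, with the fitted value and its standard error in red and the ratio of each pair of equal replicate number in grey. The grey band runs from the 10th to the 90th percentile of all tested genes, and TNS1, at -1.06, is the one gene below it with all its pairs.

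The wider adhesion machinery was read from 9 lists of genes set by textbook role, though with earlier results of these data known. The shares below are therefore a description of these lists. They held 154 genes in all, 136 of them tested. Without the 9 genes above, 127 were tested. Of these, 11 were lower and 0 higher at an adjusted p-value under 0.05 in edgeR (8.66% lower), beside 2.22% lower and 0.464% higher over all tested genes. At an unadjusted p-value under 0.05, 18 were lower and 5 higher (6.8% and 4.35% of all tested genes), and DESeq2 gave 11 lower and 1 higher. With the replicate number as a block, 18 were lower and 7 higher, beside 6.06% and 3.97% of all genes. The median log2 fold change of the 127 genes was -0.03. The genes that fell lay in 4 lists, the integrins, their matrix ligands, the LIM adaptors and the pooled targets of SRF and YAP.

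In the list of LIM adaptors, 2 genes passed both cut-offs. TGFB1I1, also called Hic-5, the closest relative of paxillin, had 23.6, 27.2 and 21.2 CPM in the control and 8.96, 7.96 and 8.16 CPM with sgRNA #2. The groups were far apart, with a log2 fold change of -1.51 (SE 0.143, adjusted p = 3.07e-06 in edgeR). PDLIM7, also called Enigma, a PDZ and LIM protein of actin filaments, had 30.3, 31.6 and 23.7 CPM in the control and 10.8, 12.6 and 12.2 CPM with sgRNA #2. It fell by a log2 fold change of -1.26 (SE 0.138, adjusted p = 1.53e-05 in edgeR). Of the 16 tested LIM adaptors, 2 were lower and 0 higher in edgeR and likewise in DESeq2, and 3 were lower and 2 higher at an unadjusted p-value under 0.05. LASP1, the most abundant of them outside the 9 genes, had a log2 fold change of 0.04 (SE 0.067, adjusted p = 0.907).

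Of the 18 tested targets of SRF and YAP, 2 fell and 0 rose in edgeR. The list pools targets of either factor, so these counts do not describe SRF targets or YAP targets separately. TAGLN, transgelin, a small actin-bundling protein, had 16.2, 15.0 and 10.8 CPM in the control and 5.55, 5.41 and 2.83 CPM with sgRNA #2. Its log2 fold change was -1.58 (SE 0.225, adjusted p = 3.15e-04 in edgeR). CNN2, the calponin of non-muscle cells, had 155, 189 and 144 CPM in the control and 84.1, 75.4 and 98.3 CPM with sgRNA #2. It fell by a log2 fold change of -0.92 (SE 0.102, adjusted p = 1.68e-05 in edgeR), just short of the fold cut-off. VCL and ZYX, which also stand in this list, are described above, and TPM1, the most abundant of the others, had a log2 fold change of -0.10 (SE 0.065, adjusted p = 0.662). The list's median was -0.05. DESeq2 gave the same counts of 2 lower and 0 higher, an unadjusted p-value under 0.05 gave the same, and 1 target, CTGF, was higher with the replicate block. CTGF had 33.1, 31.0 and 20.8 CPM in the control and 36.1, 42.8 and 27.5 CPM with sgRNA #2. Its log2 fold change was 0.34 (SE 0.161), with edgeR adjusted p-values of 0.448 without and 0.00508 with the block.

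The CArG box, the element that SRF binds, was searched in the promoter windows, and its pattern reads the same on both strands. It was in 454 of the 35116 windows of the table (1.29%) and in 16 of the 204 windows of the adhesion genes (7.84%), a list that holds genes placed in it as SRF targets. None of the 14 windows of the 7 members with an entry held one, the 5 of TNS1 included. Among the list genes that fell, TGFB1I1 and CNN2 each had a window with a box, shown in capitals, 51 and 89 bases before the start site. PDLIM7, COL4A1, COL4A2, NID2, LAMB1 and ITGA1, which also fell, had a window without a box. TAGLN, AGRN and ITGB4, which fell too, had no window in the table and were not searched. In all, 14 of the 109 adhesion genes with a window had a box, and apart from TGFB1I1 and CNN2 none of them passed in the reported edgeR fit. The TGFB1I1 window is at chr16:31472955-31473254 and the CNN2 window at chr19:1026358-1026657, both on the plus strand.
TGFB1I1 promoter: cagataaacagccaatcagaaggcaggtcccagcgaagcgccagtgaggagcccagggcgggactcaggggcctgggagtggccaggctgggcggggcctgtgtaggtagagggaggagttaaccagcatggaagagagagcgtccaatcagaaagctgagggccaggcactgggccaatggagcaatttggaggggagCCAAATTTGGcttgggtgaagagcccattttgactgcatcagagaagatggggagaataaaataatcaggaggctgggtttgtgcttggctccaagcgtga
CNN2 promoter: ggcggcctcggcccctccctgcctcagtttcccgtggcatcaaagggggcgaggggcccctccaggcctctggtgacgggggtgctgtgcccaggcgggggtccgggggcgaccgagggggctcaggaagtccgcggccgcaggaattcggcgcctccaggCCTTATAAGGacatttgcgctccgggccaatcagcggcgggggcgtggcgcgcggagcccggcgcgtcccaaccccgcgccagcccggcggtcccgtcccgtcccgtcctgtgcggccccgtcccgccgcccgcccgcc

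TGFB1I1 also held the partial match of sgRNA #2 with the largest number of bases next to the PAM among the list genes that fell, at chr16:31474694-31474716 on the minus strand, 1265 bp downstream of a start site, with 10 bases next to the PAM identical and 6 mismatches in all.
TGFB1I1 partial match: tGGcctGGgtGGGAACACCCcGG
Within 2000 bp of a start site a match of at least 10 such bases was held by 3 of the 136 adhesion genes, the others being ACTN1 and PARVB, and by 0.291% of all genes searched. The match of PARVB was longer, with 13 bases next to the PAM and 5 mismatches in all. Neither ACTN1 nor PARVB passed the test. COL4A2, which also fell, held an intron site with fewer mismatches, 4 in all, and 6 bases next to the PAM.

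Among the 24 tested matrix ligands, 5 were lower and 0 higher in edgeR, 5 and 1 in DESeq2, and 6 and 2 at an unadjusted p-value under 0.05. The 5, named here after their values were seen, encode basement membrane proteins, as do most genes of this list. The list holds 17 tested type IV collagen, laminin, nidogen, agrin and perlecan genes, whose median log2 fold change was -0.08. COL4A1 and COL4A2, which form the main type IV collagen of basement membranes, had 118, 108 and 96.5 CPM and 205, 199 and 193 CPM in the control. With sgRNA #2 they had 70.3, 51.4 and 62.3 CPM and 135, 129 and 121 CPM. Neither overlapped between the groups, with log2 fold changes of -0.81 (SE 0.101, adjusted p = 6.69e-05 in edgeR) for COL4A1 and -0.63 (SE 0.066, adjusted p = 9.25e-06 in edgeR) for COL4A2. The pair is transcribed in opposite directions from a shared stretch of chromosome 13, and their windows in the promoter table overlap by 226 bases. The COL4A1 window, at chr13:110307108-110307407 on the minus strand, is shown for that reason.
COL4A1 promoter: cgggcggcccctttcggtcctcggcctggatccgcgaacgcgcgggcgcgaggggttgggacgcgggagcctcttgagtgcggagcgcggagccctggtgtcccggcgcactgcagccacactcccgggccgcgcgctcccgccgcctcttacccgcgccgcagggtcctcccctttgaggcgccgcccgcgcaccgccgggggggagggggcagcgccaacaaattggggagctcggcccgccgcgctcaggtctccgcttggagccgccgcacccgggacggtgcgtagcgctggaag

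NID2, nidogen 2, which bridges laminin and type IV collagen, had 68.0, 64.1 and 87.4 CPM in the control and 35.0, 35.6 and 52.1 CPM with sgRNA #2, a log2 fold change of -0.85 (SE 0.137, adjusted p = 0.00115 in edgeR). LAMB1, a laminin chain, and AGRN, agrin, changed by less, with log2 fold changes of -0.31 (SE 0.063, adjusted p = 0.00984 in edgeR) and -0.26 (SE 0.067, adjusted p = 0.0463 in edgeR). Both calls were lost when single libraries were left out. LAMB1 did not pass without control replicate 3 or without sgRNA #2 replicate 1 or 2, and AGRN passed only without control replicate 3. FN1, fibronectin, the most abundant ligand, had 2257, 2974 and 2546 CPM in the control and 2490, 3130 and 2928 CPM with sgRNA #2 and did not pass (log2 fold change 0.14, SE 0.096, adjusted p = 0.687), although with the replicate block it did (adjusted p = 0.0172).

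LAMB3 and THBS1 were singled out after their values were seen, as the ligands with the most positive values. LAMB3, a chain of the laminin of epithelia, had 113, 109 and 148 CPM in the control and 156, 146 and 182 CPM with sgRNA #2. THBS1, thrombospondin 1, had 174, 132 and 134 CPM in the control and 225, 184 and 170 CPM with sgRNA #2. The groups overlapped, the log2 fold changes were 0.38 (SE 0.103) and 0.40 (SE 0.106), and neither passed in edgeR (adjusted p = 0.0588 and 0.0569), whereas both passed with the replicate block (adjusted p = 1.44e-12 and 7.52e-14). LAMB3 was also the 1 list gene that DESeq2 gave as higher (adjusted p = 0.0333).

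Of 17 tested integrin subunits, 2 were lower and 0 higher in edgeR, 2 and 0 in DESeq2, and 5 and 1 at an unadjusted p-value under 0.05. ITGA1, a collagen-binding subunit, had 14.8, 15.7 and 18.3 CPM in the control and 9.67, 11.6 and 11.7 CPM with sgRNA #2 (log2 fold change -0.58, SE 0.146, adjusted p = 0.0411 in edgeR). ITGB4, the laminin-binding subunit of hemidesmosomes, had 41.2, 67.6 and 49.8 CPM in the control and 30.9, 41.8 and 34.0 CPM with sgRNA #2, so that its groups overlapped (log2 fold change -0.58, SE 0.148, adjusted p = 0.0438 in edgeR). As for TNS1, control replicate 2 was the highest for ITGB4, whose log2 fold change without it was -0.36 (adjusted p = 0.241). ITGA1 did not pass in DESeq2 (adjusted p = 0.127). Among the fits that left out a library, the call of ITGA1 was kept only without control replicate 1 and that of ITGB4 only without control replicate 1 or sgRNA #2 replicate 2. PELO overlaps ITGA1 on the same strand, so that their reads may have been split. ITGAV, the most abundant subunit and a receptor for fibronectin and vitronectin, had 756, 650 and 726 CPM in the control and 829, 751 and 864 CPM with sgRNA #2. It did not pass without the block (log2 fold change 0.20, SE 0.073, adjusted p = 0.246) and did with it (adjusted p = 6.82e-05). The median of the integrins was -0.16.

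The remaining lists held no gene that passed. Of 10 tested talins, kindlins and members of the ILK complex, 0 passed in edgeR, 0 in DESeq2 and 0 at an unadjusted p-value under 0.05, and PARVA, the parvin of the ILK complex, had a log2 fold change of 0.10 (SE 0.071). FERMT3, the kindlin of blood cells, was near the filter at 1.28 to 2.67 CPM, with a log2 fold change of 0.46 (SE 0.351). Of 24 genes of FAK and Src signalling, 0 passed in edgeR and in DESeq2, 1 at an unadjusted p-value under 0.05, and 1 with the replicate block. That gene was PTK2B, the relative of focal adhesion kinase, with 30.3, 42.5 and 38.0 CPM in the control and 27.2, 31.7 and 28.2 CPM with sgRNA #2, a log2 fold change of -0.35 (SE 0.120) and adjusted p-values of 0.185 without and 0.00203 with the block. SRC had a log2 fold change of 0.05 (SE 0.067) and PAK1, a kinase downstream of Rac and Cdc42, one of -0.14 (SE 0.090).

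Of 22 actin linkers, 0 passed in edgeR and in DESeq2 and 1 was lower at an unadjusted p-value under 0.05, while KANK1 had a log2 fold change of -0.18 (SE 0.081) and ACTG1, cytoplasmic actin, one of -0.01 (SE 0.065). Of 8 tensin partners, 0 passed in edgeR and in DESeq2 and 0 had an unadjusted p-value under 0.05. Among them CBL, a ubiquitin ligase, MET, a receptor kinase, and STARD13 had log2 fold changes of 0.13 (SE 0.069), 0.06 (SE 0.083) and -0.27 (SE 0.153).

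**Figure D5:**
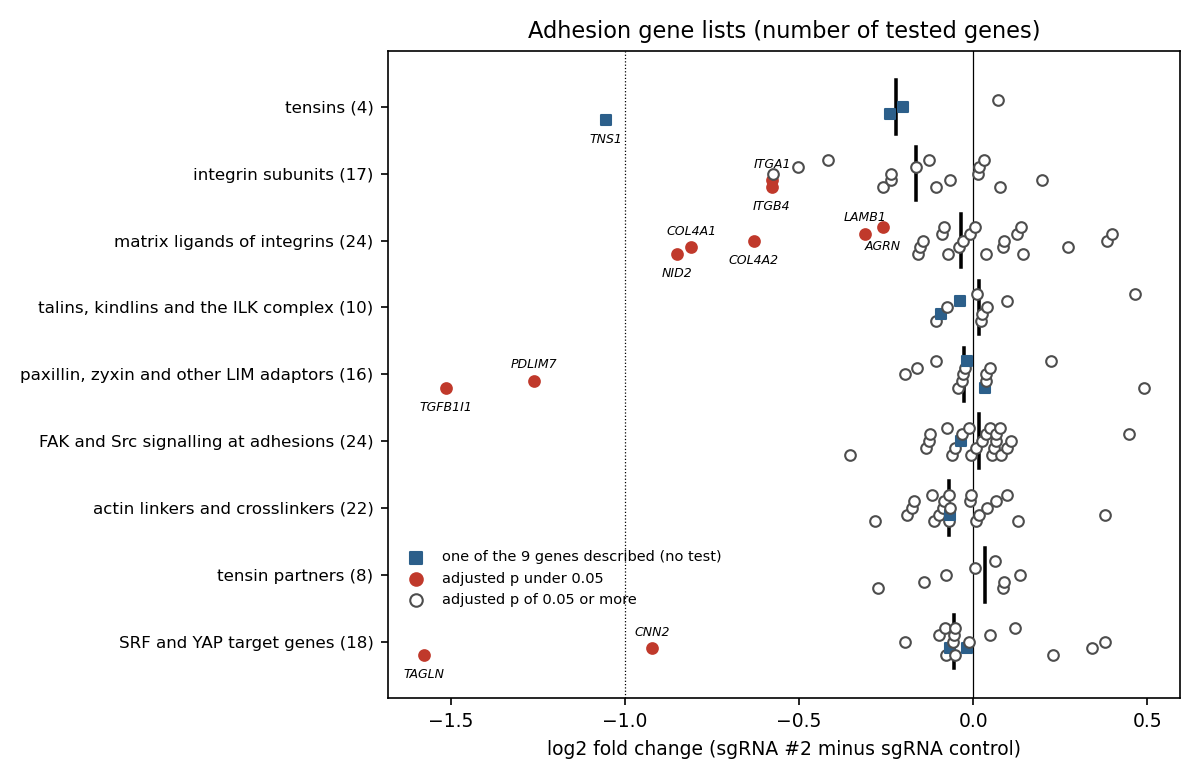
log2 fold change (horizontal axis, sgRNA #2 minus sgRNA control) of each tested gene of the 9 adhesion lists (vertical axis), with blue squares for the 9 genes described without a test, red points for genes with an adjusted p-value under 0.05, open points for the rest, black bars for list medians and a dotted line at -1. TGFB1I1, PDLIM7 and TAGLN lie beyond the line with TNS1, and list medians lie between -0.22 and 0.03.

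The genes whose log2 CPM followed TNS1 most closely over the 6 libraries were TCTEX1D2 (Pearson r = 0.993), HOXB13 (r = 0.987) and MUC5AC (r = 0.985). These are 3 of 13355 genes ranked on 6 points in 2 groups, and the values share the libraries. MUC5AC, a secreted airway mucin, had 8.60, 21.3 and 15.4 CPM in the control and 5.12, 6.91 and 5.66 CPM with sgRNA #2. As for TNS1, control replicate 2 was the highest library and control replicate 1 the lowest of the control. HOXB13, a homeobox transcription factor, had 5.73, 11.5 and 8.02 CPM in the control and 4.13, 5.11 and 4.66 CPM with sgRNA #2, and passed in edgeR with the replicate block (adjusted p = 2.71e-04) but not without it (adjusted p = 0.0717). Of the adhesion genes named above, ITGB4 ranked 17th (r = 0.976) and PTK2B 42nd (r = 0.965), whereas TGFB1I1 (r = 0.861), PDLIM7 (r = 0.845) and COL4A1 (r = 0.693) ranked lower.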

How the data were processed

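RNA-seq of 6 libraries was analysed, 3 of sgRNA #2 and 3 of sgRNA control, grouped and numbered by their labels. Each deposited file holds one library's unnormalized counts, which the authors obtained with htseq-count. The submitters' processing notes name hg38, Trim Galore, FastQC, Bowtie2 2.3.3.1, SAMtools, Picard and HTSeq. Which annotation and strand setting were used is not given in the sources used here. Reads outside any gene (19.7% to 21.1% of reads) and ambiguous reads (2.61% to 2.75%) were left out. Counting without a stated strand cannot separate overlapping genes on opposite strands.

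The counts were tested in R 4.3.3 with the quasi-likelihood test of edgeR 4.0.16 (TMM, factors from 0.992 to 1.01) on 13356 genes (a minimum of 10 counts in 3 or more libraries), and p-values were adjusted over all of them. A gene was called at a log2 fold change of at least 1 in size and an adjusted p under 0.05, the cut-offs of the study. The standard error was the log2 fold change over the square root of F, and intervals are at 95% with 17.0 degrees of freedom. With 3 against 3, an exact permutation test of one gene cannot go below p = 0.1. CPM used the TMM library sizes. On simulated counts of 13238 genes, 200 of them changed, the test recovered 200 with 0 false calls. Its recovery of genes with a log2 fold change as small as that of TNS1 was not tested. DESeq2 1.42.0, glmTreat, other scalings, other filters, a replicate block and leaving out each library were the alternatives.

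Deviations from the group means correlated between libraries of equal number (0.269, 0.287 and 0.291), so the numbers were taken to pair the libraries, and blocked values are given where they change a call. The blocked fit had no limit on its prior degrees of freedom, and its p-values are correspondingly small.

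The members and lists were chosen with earlier results of these data known. Named were all members, from each list the 2 other genes with the smallest p and the most abundant one, all list genes past both cut-offs, the 3 tested neighbours on each side of TNS1, the 3 genes most correlated with it, and SFTPB; NID2, LAMB1, AGRN, LAMB3, THBS1 and CTGF were added after their values were seen. One gene that this rule names is not reported here. Of the symbols, 23161 matched GENCODE 44 directly, 1361 through a RefSeq synonym, and 1963 did not match. The guide sequence came from the study's supplement, promoters from RefSeq.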

Additional observations from a re-analysis of the deposited data

How the results depend on the processing

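The log2 fold change of TNS1 stayed negative under every alternative run and ranged from -1.26 to -0.72 over the 6 fits that left out a library, so that the number of the 9 genes called ranged from 0 to 1. It was 0 by DESeq2 and without sgRNA control replicate 2 or sgRNA #2 replicate 3, and 1 otherwise. All tested genes called numbered 96 in the reported fit and 63 with at least 10 counts required in every library, where fewer genes were tested. The pairing by replicate number moved the adhesion list genes, the 9 genes included, from 12 lower and 0 higher to 21 lower and 7 higher. The named genes outside the 9 that gained an adjusted p-value under 0.05 with it are given with their values in the text. Higher list genes numbered 1 by DESeq2, 2 without a filter on low counts and 0 to 1 when libraries were left out, and the cause was not tested. When single libraries were left out, the sign turned for ILK (-0.083 to 0.0040), PXN (-0.021 to 0.10), ZYX (-0.12 to 0.075), TNS2 (-0.089 to 0.20), LASP1 (-0.021 to 0.075), SRC (-0.0067 to 0.079), ACTG1 (-0.043 to 0.024) and MET (-0.013 to 0.15), all of them near 0. TGFB1I1, PDLIM7, TAGLN, CNN2, COL4A1, COL4A2 and NID2 kept an adjusted p-value under 0.05 in edgeR in all 6 fits that left out a library. With glmTreat above 1.2-fold, list genes lower went from 12 to 8, as AGRN, LAMB1, ITGA1 and ITGB4 lost it. AGRN also lost it with RLE size factors, ITGA1 by DESeq2, and ITGB4 with total counts only or at least 10 counts in every library. PTK2B gained it without a filter on low counts and without sgRNA control replicate 1. In all, 450 of 467 alternative log2 fold changes of the 36 named genes kept their sign and their side of the joint cut-offs, which does not count changes in the adjusted p-value alone. Depths of 6047554 to 7584611 counts and 3 libraries per group limit what can be seen of genes at the level of TNS1, with 68 to 263 counts.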
